A study of Homo sapiens with 4 samples.

Results

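The integrin and laminin subunit genes were taken as protein-coding genes of GENCODE release 44 whose symbol begins with ITGA, has the form ITGB1 to ITGB8, or consists of LAMA, LAMB or LAMC and a number. Described here are 37 genes of the 60558 listed in each library, with 18 integrin α subunits, 8 integrin β subunits and 11 laminin chains (5 α, 4 β and 2 γ). All 37 were found in the files. They were followed in A549 and HCC827, which are established human lung adenocarcinoma (LAD) cell lines, each transduced either with empty vector or with myr-AKT1, an AKT1 carrying a myristoylation signal by which the kinase is held at the membrane in its active form. The labels call these libraries A549_VECTOR, A549_AKT1, HCC827_VECTOR and HCC827_AKT1. Each of the 4 conditions is 1 library of 1 transduced cell population, and the promoter that drives the transgene was not given in the sources used here. No difference within a line therefore has a replicate check, and more RNA per cell cannot be told apart from more cells that express a gene.

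The deposited value of a gene is its read count divided by 1 size factor of its library, called the normalised count below. How these size factors were set was not given in the sources used here. The recovered factors for myr-AKT1 and vector, 0.873 and 1.145 in A549 and 0.795 and 1.258 in HCC827, are reciprocal within each line, as if set line by line. The recovered reads ranged from 16322183 to 33530317 per library. AKT1 had 6297 normalised counts in A549-myr-AKT1 cells against 4243 in A549-vector cells, and 4805 against 2175 in HCC827 cells, construct and endogenous gene together. Of 3 genes that tell the lines apart, CDKN2A, a tumour suppressor gene that A549 has lost, had 0 reads in both A549 libraries and 2055 and 4344 reads in the myr-AKT1 and vector libraries of HCC827. AKR1B10, a reductase gene high in A549, differed by a log2 ratio (myr-AKT1 over vector) of -0.06 in A549 and 3.16 in HCC827, and EGFR, which is high in HCC827, by 0.17 and -1.17. All 5 epithelial markers examined were detected in every library, and their log2 ratios in A549 and HCC827 were 0.59 and -0.22 for EPCAM, -0.36 and -1.81 for KRT8, -0.38 and -1.75 for KRT18, 2.65 and -0.75 for KRT19, and 1.39 and 0.31 for CDH1. The part of these differences in the values below was not tested.

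Integrins are receptors for the extracellular matrix. Each is a pair of 1 α and 1 β subunit, and the α subunit largely sets which ligand is bound. Laminins are the cross-shaped glycoproteins of basement membranes, built from 1 α, 1 β and 1 γ chain, and a laminin is named by the numbers of its chains. In epithelia of the lung, laminin-332 and the laminin-511 family form the sheet on which the cells sit, and they are bound by the integrins α3β1, α6β1 and α6β4, the last of which anchors hemidesmosomes. The remaining integrins bind collagens (α1β1, α2β1, α10β1, α11β1), fibronectin (α5β1, α4β1), ligands with an RGD motif (the αv integrins) or ligands on other cells (the integrins of leukocytes).

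Of the 37 genes, 33 had a mean normalised count of at least 10 over the 2 A549 libraries and 24 over the 2 HCC827 libraries. ITGA8, ITGA9, ITGAD and LAMA1 passed in neither line and had 0 to 2 reads in each library. A gene was called higher or lower in a line when its log2 ratio, the log2 of the normalised count of the myr-AKT1 library over that of the vector library, was at least 1 or at most -1. In A549 cells 13 of the 33 genes were higher (ITGA4, ITGA7, ITGA11, ITGAM, ITGAV, ITGAX, ITGB2, ITGB3, ITGB6, LAMA4, LAMB2, LAMB3 and LAMB4), where 15.1% of all 18750 genes past the same minimum were. The 5 lower genes were ITGA2B, ITGAL, ITGB7, LAMA3 and LAMC3, against 9.87% of all genes. In HCC827 cells 5 of 24 were higher (ITGA5, ITGAX, LAMA5, LAMB2 and LAMB3), against 14.1% of 17358 genes, and 4 were lower (ITGA2, ITGA3, ITGA6 and ITGA10), against 12.4%. With total reads, TMM or size factors over 4 libraries 3 were lower, since ITGA3 then had log2 ratios of -0.96, -0.99 and -0.996. Some of the called genes passed the minimum only through the library where they were high. ITGAX in both lines and LAMB4 in A549 had under 10 normalised counts in vector cells. ITGAL and ITGB7 in A549 and ITGA10 in HCC827 had under 10 in myr-AKT1 cells. The median log2 ratio was 0.85 over the 33 genes in A549 cells, beside -0.03 over all genes, and 0.14 over the 24 genes in HCC827 cells, beside -0.04.

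**Figure D1:**
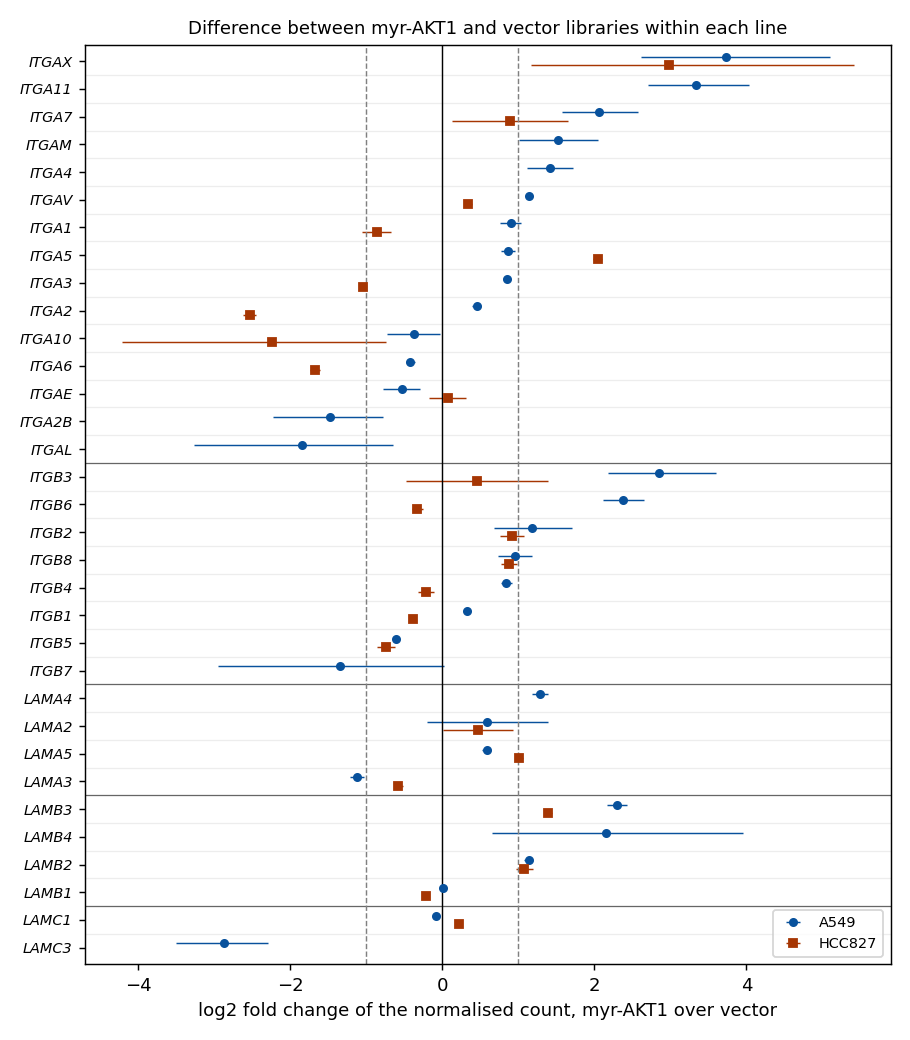
The log2 fold change of the normalised count (myr-AKT1 over vector) is plotted for the 33 subunit genes with a mean normalised count of at least 10 in A549 cells (circles) and for the 24 with that minimum in HCC827 cells (squares), grouped by subunit class. Bars are 95% counting intervals from 1 library per condition, dashed lines mark 1 and -1, and LAMB3, LAMB2 and ITGAX lie to the right of 1 in both lines.

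Among the 24 genes measured in both lines, LAMB3, LAMB2 and ITGAX were higher by the threshold in both, against 4.6% of the 15704 genes measured in both lines. ITGAX was measured only through its myr-AKT1 libraries, with 81.3 against 6.11 normalised counts in A549 cells and 18.9 against 2.38 in HCC827 cells. Its means of 43.7 and 10.6 fall under the alternative minimum of 50. No subunit gene was lower by the threshold in both, against 4.08% of all genes. By counting error alone, given as the 95% Clopper-Pearson interval of the read ratio, 9 of the 24 had intervals above 0 in both lines (ITGA5, ITGA7, ITGAV, ITGAX, ITGB2, ITGB8, LAMA5, LAMB2 and LAMB3), where 18% of all genes did. Another 4 had intervals below 0 in both (ITGA6, ITGA10, ITGB5 and LAMA3), where 24.1% did, and 7 had intervals on opposite sides of 0 (ITGA1, ITGA2, ITGA3, ITGB1, ITGB4, ITGB6 and LAMC1), where 14.7% did. These intervals cover counting error only, since reads are not independent molecules and cultures were not repeated.

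The difference between myr-AKT1 and vector over both lines was tested with a limma fit on log2(normalised count + 1). The fit took all 4 libraries, with cell line as a block and 1 residual degree of freedom. The variance of each gene is moderated in limma by that of all genes tested. An adjusted p therefore cannot tell whether the difference exceeded the gene's own disagreement between the lines. Of the 31 subunit genes kept by the filter on low counts, LAMB3 was called higher, with a log2 ratio of 1.85 (standard error 0.29, adjusted p = 0.0231, Benjamini-Hochberg over 19314 genes, higher in 2 of 2 lines), where 1.29% of all genes were called higher. Among these 31 genes limma called 0 lower, where 1.73% of all genes were, with 3 lower genes at an unadjusted p under 0.05, and edgeR and DESeq2 called 0 lower as well. LAMB2 (adjusted p = 0.0558), ITGA5 (adjusted p = 0.0574) and ITGAX (adjusted p = 0.0638) came next in limma and did not pass 0.05. The log2 ratios in A549 and HCC827 lay closer together for LAMB2 (1.14 and 1.08) than for LAMB3 (2.299 and 1.40). The LAMB3 call did not hold with size factors estimated over all 4 libraries, where its adjusted p in limma was 0.0522, or without the cell line in the model, where it rounded to 1.

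**Figure D2:**
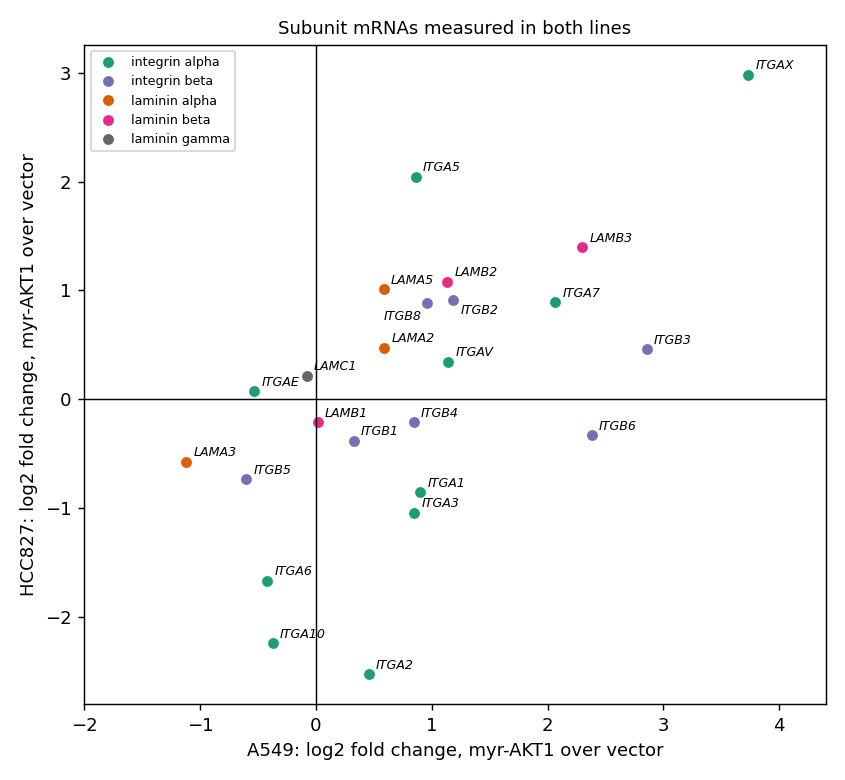
Each point is 1 of the 24 subunit genes with a mean normalised count of at least 10 in both lines, with its log2 fold change (myr-AKT1 over vector) in A549 cells on the x axis and in HCC827 cells on the y axis, coloured by class. ITGAX and LAMB3 lie furthest to the upper right, while ITGA2, ITGA3, ITGA1 and ITGB6 lie in the quadrant of higher in A549 and lower in HCC827.

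LAMB3 encodes the β3 chain, which is best known from laminin-332. The gene lies on chromosome 1 from 209614870 to 209652425 on the minus strand of GRCh38. It had 2493 normalised counts in A549-myr-AKT1 cells against 506.5 in A549-vector cells, and 10579 in HCC827-myr-AKT1 cells against 4020 in HCC827-vector cells. The myr-AKT1 library was the higher one in both lines, by 4.92-fold in A549 cells (log2 ratio 2.299, 95% counting interval 2.17 to 2.43) and by 2.63-fold in HCC827 cells (log2 ratio 1.40, 1.35 to 1.45). HCC827-vector cells had more LAMB3 than A549-myr-AKT1 cells per length, with 39.9 against 18.6 RPKM (reads scaled to the exon length in kb and to the recovered reads of the library).

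LAMA3, the α chain of laminin-332, went the other way. This gene lies on chromosome 18 from 23689453 to 23956222 on the plus strand. It had 1329 normalised counts in A549-myr-AKT1 cells against 2887 in A549-vector cells, and 4242 against 6319 in HCC827 cells. The myr-AKT1 library was the lower one in both lines, with log2 ratios of -1.12 (-1.22 to -1.02) and -0.57 (-0.63 to -0.52), and in limma the value of -0.85 across both lines had an adjusted p of 0.136.

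Per length, LAMB3 had 0.547 times the level of LAMA3 in A549-vector cells and 5.85 times in A549-myr-AKT1 cells, and this ratio went from 1.98 to 7.78 in HCC827 cells. LAMB3 was thus below LAMA3 in A549-vector cells and above it in the other 3 libraries.

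Sequence before the annotated starts of LAMB3 and LAMA3 is shown because both genes encode chains of the same laminin and differed in opposite directions between myr-AKT1 and vector, and that of LAMB2 because it was the other laminin gene past the threshold of 1 in both lines. The sequences are from RefSeq on GRCh38.p14, written 5′ to 3′ on the strand of the gene, and stop short of annotated exons. Capitals mark matches to the AP-1 motif TGANTCA, the only one of the 3 searched motifs with a match in these stretches. Among the annotated starts of LAMB3, only the one with a match before it is shown.

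LAMB3, chr1:209651395-209651624, minus strand, before the innermost of its 3 RefSeq starts and within an intron of the longer transcripts: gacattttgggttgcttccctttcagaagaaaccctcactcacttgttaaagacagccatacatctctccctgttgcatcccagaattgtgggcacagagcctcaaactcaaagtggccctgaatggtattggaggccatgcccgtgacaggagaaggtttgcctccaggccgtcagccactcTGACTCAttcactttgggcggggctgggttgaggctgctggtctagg

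LAMA3, chr18:23872770-23873019, plus strand, before an internal start and within an intron of the longer transcripts: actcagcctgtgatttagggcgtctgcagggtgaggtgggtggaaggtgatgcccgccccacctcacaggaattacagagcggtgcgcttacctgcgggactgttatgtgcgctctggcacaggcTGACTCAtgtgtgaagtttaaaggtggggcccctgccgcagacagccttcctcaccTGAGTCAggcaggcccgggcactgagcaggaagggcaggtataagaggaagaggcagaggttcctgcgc

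LAMB2, chr3:49133119-49133300, minus strand, upstream of the whole gene: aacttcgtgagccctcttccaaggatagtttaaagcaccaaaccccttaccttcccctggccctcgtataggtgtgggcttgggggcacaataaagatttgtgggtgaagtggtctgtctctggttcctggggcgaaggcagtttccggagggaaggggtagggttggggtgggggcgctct

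The LAMB3 stretch has 1 match, TGACTCA, beginning 67 bases before the start, while the windows of its 2 outer starts, at 209652329 and 209652425, have 0. For LAMA3, the stretch has 2, TGACTCA at 125 and TGAGTCA at 69 bases before the start. On either strand, TGANTCA was found in 3 of 33 promoter windows of 26 subunit genes (250 bases before to 50 after the start), those of LAMB3, LAMA3 and ITGA5, and in 7.71% of all 35116 windows. The STAT motif TTCNNNGAA was in the windows of LAMB2 and ITGAE, 2 of 33, and in 7.66% of all windows. The forkhead motif TGTTTAC was in 0 of 33 and in 3.42% of all. No subunit gene had matches to more than 1 of the 3 motifs in its windows. A match is a string of letters in the sequence and does not show that a factor bound there.

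LAMB2 encodes the β2 chain of laminin-421 and laminin-521 and lies on chromosome 3 from 49121114 to 49133118 on the minus strand. It had 7054 normalised counts in A549-myr-AKT1 cells against 3209 in A549-vector cells, and 1862 against 880.5 in HCC827 cells. The log2 ratios of 1.14 (1.08 to 1.20) and 1.08 (0.97 to 1.19) were nearly alike in size. LAMB1, the more widely used β chain, had 16562 against 16390 normalised counts in A549 cells (log2 ratio 0.015, -0.016 to 0.05) and 11178 against 12932 in HCC827 cells (-0.21, -0.25 to -0.17). LAMB4, a chain of little known function, had 17 against 5 reads in A549 cells (2.16, 0.66 to 3.95). In HCC827 cells it had 6 against 15 reads and did not reach the minimum.

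LAMC1, the γ chain shared by most laminins, differed little between the libraries of a line, with 12838 against 13547 normalised counts in A549 cells and 12231 against 10527 in HCC827 cells. Its log2 ratios were -0.078 (-0.11 to -0.04) and 0.22 (0.18 to 0.25), and the first became 0.025 with size factors estimated over all 4 libraries. LAMC3 had 30.9 against 226 normalised counts in A549 cells, from 27 and 259 reads, a log2 ratio of -2.87 (-3.50 to -2.30), and 4 reads in each HCC827 library. It was the only one of the 33 genes measured in A549 cells below a log2 ratio of -2.

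Of the α chains, LAMA5, the chain of laminin-511 and laminin-521, had 5910 against 3934 normalised counts in A549 cells and 6762 against 3358 in HCC827 cells. The myr-AKT1 library was higher in both lines, with log2 ratios of 0.59 (0.53 to 0.65) and 1.01 (0.95 to 1.07), and an adjusted p of 0.143 in limma. LAMA4, which is best known from vessel walls and mesenchyme, had 2384 against 978.9 normalised counts in A549 cells, a log2 ratio of 1.28 (1.18 to 1.39), and 1 or 2 reads in the HCC827 libraries. Endothelial markers moved beside it in A549 cells, where the summed reads of PECAM1, CDH5, VWF and KDR were 120 with myr-AKT1 and 16 with vector, with VWF and KDR at 0 in myr-AKT1 cells. In HCC827 cells the sums were 161 and 103. These marker sums are raw reads not scaled to depth, and the HCC827 libraries held 16322183 recovered reads with myr-AKT1 and 27312465 with vector. As log2 ratios of normalised counts in HCC827, PECAM1 had 0.77, CDH5 1.12, VWF 1.25 and KDR 3.53. The part of other cell types in the LAMA4 value was not tested. LAMA2, the chain of muscle laminin, was low, with 35.5 against 23.6 normalised counts in A549 cells (0.59, -0.20 to 1.39). In HCC827 cells it had 98.1 against 70.7 (0.47, 0.015 to 0.93).

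Set against each other per length, LAMA5 and LAMA3 stood in opposite order in the HCC827 libraries, where LAMA3 was the higher in vector cells, at 20.1 against 10.8 RPKM, and LAMA5 was the higher in myr-AKT1 cells, at 23.04 against 14.3 RPKM. In A549 cells LAMA5 was the higher in both libraries, and the ratio of LAMA5 to LAMA3 went from 1.38 to 4.51. LAMA4 was above LAMA3 in A549-myr-AKT1 cells, with 6.90 against 3.18 RPKM. Among the β chains LAMB3 led in HCC827-myr-AKT1 cells, with 110.8 RPKM against 29.3 for LAMB1. The gap was smaller by the length of the canonical transcript, with 128.3 against 96.3. The order of LAMB1 against LAMB2 in A549-myr-AKT1 cells and of LAMB1 against LAMB3 in HCC827-vector cells turned with the gene length used, since the summed exons of LAMB1 span 18.6 kb and its canonical transcript 5.65 kb, and is not given.

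**Figure D3:**
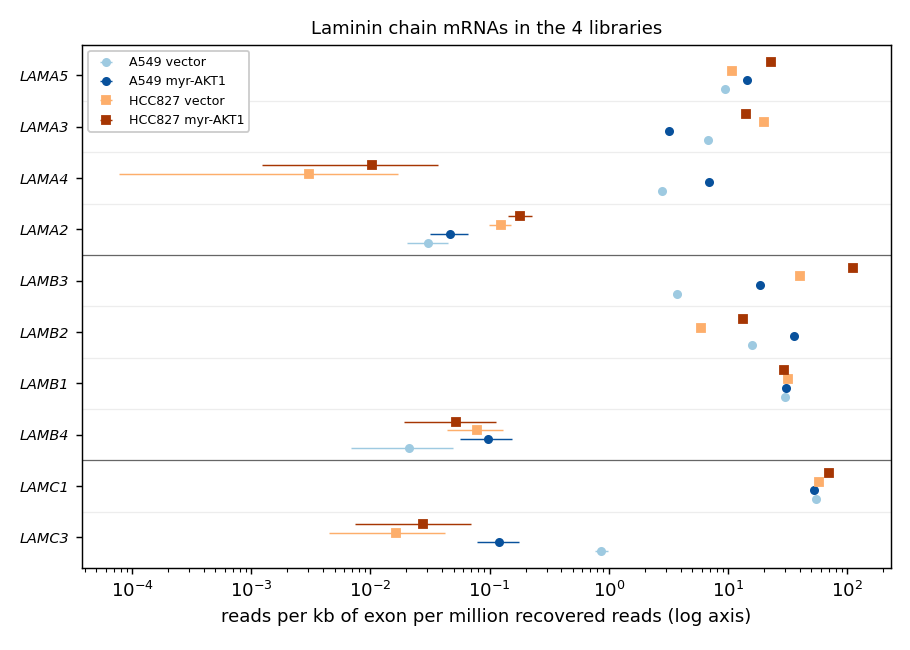
Levels of 10 laminin chain mRNAs in the 4 libraries are plotted in RPKM on a log axis, with α, β and γ chains in separate blocks. Bars are 95% Poisson intervals, a library with 0 reads has no point, and LAMB3 reached 110.8 in HCC827-myr-AKT1 cells while LAMC1 lay between 52.7 and 70.5 in all 4 libraries.

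The receptors of these laminins were next compared with their ligands. ITGA6, whose product pairs with β1 and with β4, lies on chromosome 2 from 172427354 to 172506459. It had 4050 normalised counts in A549-myr-AKT1 cells against 5412 in A549-vector cells, and 2431 against 7741 in HCC827 cells. The myr-AKT1 library was the lower one in both lines, with log2 ratios of -0.42 (-0.48 to -0.36) and -1.67 (-1.74 to -1.60), and limma gave an adjusted p of 0.144. ITGA3, the other main laminin-binding α subunit of epithelia, had 11277 against 6268 normalised counts in A549 cells, a log2 ratio of 0.85 (0.80 to 0.89), and 8668.5 against 17878 in HCC827 cells, a log2 ratio of -1.04 (-1.08 to -1.01). ITGA3 thus lay on opposite sides of 0 in the lines while ITGA6 lay below 0 in both.

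ITGB4, the β partner of α6 in hemidesmosomes, had 4193.5 against 2333 normalised counts in A549 cells (log2 ratio 0.85, 0.77 to 0.92) and 1319 against 1528 in HCC827 cells (-0.21, -0.32 to -0.10). ITGB1, the partner of most α subunits described here, had 77833 against 62109 normalised counts in A549 cells (0.33, 0.31 to 0.34) and 31441 against 41012 in HCC827 cells (-0.38, -0.41 to -0.36). ITGA7, a laminin receptor subunit of muscle, was low, with 168 against 40.2 normalised counts in A549 cells (2.07, 1.58 to 2.58) and 42.8 against 23.05 in HCC827 cells (0.89, 0.13 to 1.66).

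Side by side, HCC827-myr-AKT1 cells had less mRNA than vector cells for the receptor subunits ITGA3, ITGA6, ITGB1 and ITGB4, and for LAMA3 and LAMB1. They had more for the ligand chains LAMA2, LAMA5, LAMB2, LAMB3 and LAMC1. ITGA7 had counting intervals above 0 in both lines and passed the threshold of 1 in A549 only. A549-myr-AKT1 cells had more mRNA than vector cells for ITGA3, ITGB1, ITGB4, LAMA4, LAMA5, LAMB2, LAMB3 and, on 17 against 5 reads, LAMB4. They had less for ITGA6, LAMA3, LAMC3 and, by -0.078 only, LAMC1. Of 4 other hemidesmosome components, DST, which encodes the plakin BPAG1 that ties α6β4 to keratin, had a log2 ratio of -1.89 (-1.94 to -1.85) in HCC827 and 0.30 in A549, and COL17A1, a transmembrane collagen of the same structure, had 3.95 (3.40 to 4.55) in A549 and 0.35 in HCC827. PLEC and CD151 lay between -0.03 and 0.68.

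Among the collagen receptors measured in both lines, ITGA2 had the widest gap between the lines. ITGA2, on chromosome 5 from 52989340 to 53094779, had 5412 against 3947 normalised counts in A549 cells, a log2 ratio of 0.46 (0.40 to 0.51). In HCC827 cells it had 1549 in myr-AKT1 cells against 8952 in vector cells, a log2 ratio of -2.53 (-2.62 to -2.45) or 5.78-fold lower. ITGA1 had 1212 against 648.8 normalised counts in A549 cells (0.90, 0.76 to 1.04) and 389 against 704.9 in HCC827 cells (-0.86, -1.05 to -0.67), and 2.69% of its exon bases are shared with PELO on the same strand. ITGA10 was lower in HCC827-myr-AKT1 cells on few reads, with 4 against 30, and had a log2 ratio of -0.37 in A549 cells (-0.73 to -0.02).

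ITGA11, the collagen receptor subunit of fibroblasts, had 203 normalised counts in A549-myr-AKT1 cells against 20.1 in A549-vector cells, from 177 and 23 reads, a log2 ratio of 3.34 (2.70 to 4.03), and 1 and 0 reads in the HCC827 libraries. Fibroblast markers moved beside it, since DCN, LUM, PDGFRB, COL1A1 and COL3A1 summed in A549 to 1014 reads with myr-AKT1 and 128 with vector, with DCN at 0 in vector cells. The sums in HCC827 cells were 150 and 66, again as raw reads with the smaller library on the myr-AKT1 side. COL1A1 had 142 and 56 of these, a log2 ratio of 2.01. PDGFRB had 4 reads with myr-AKT1 and 6 with vector in A549. The part of other cell types in the ITGA11 value was not tested.

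Among the fibronectin receptors, ITGA5, on chromosome 12 from 54395261 to 54419266, had 2701 against 1485 normalised counts in A549 cells and 10777 against 2607 in HCC827 cells. The myr-AKT1 library was the higher one in both lines, with log2 ratios of 0.86 (0.77 to 0.95) and 2.05 (1.99 to 2.11), the second of which is 4.13-fold. Its ligand FN1 was higher in both lines too, with log2 ratios of 3.31 and 1.79. Per length, ITGA5 was the first of the α subunits in HCC827-myr-AKT1 cells, at 71.1 RPKM, and was below ITGA3, ITGA6 and ITGA2 in HCC827-vector cells, at 16.3 RPKM. ITGA2 had 52.2 RPKM in HCC827-vector cells and 9.55 in HCC827-myr-AKT1 cells. The ratio of ITGA5 to ITGA2 was 0.312 in HCC827-vector cells and 7.44 in HCC827-myr-AKT1 cells, and 0.402 and 0.534 in the A549 libraries. ITGA4, which pairs with β1 to bind fibronectin and VCAM1, had 316 against 119 normalised counts in A549 cells (1.41, 1.11 to 1.72) and 1 and 0 reads in HCC827 cells. The exons of ITGA4 overlap those of CERKL on the other strand over 26.4% of their length.

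ITGAV, the shared α subunit of the RGD-binding αv integrins, had 18209 against 8237 normalised counts in A549 cells (1.14, 1.11 to 1.18) and 9116 against 7178 in HCC827 cells (0.34, 0.30 to 0.39). Its β partners differed among themselves. ITGB6, whose product with αv activates latent TGF-β on epithelia, had 627.5 against 121 normalised counts in A549 cells (2.38, 2.11 to 2.66) and 2966 against 3726 in HCC827 cells (-0.33, -0.40 to -0.26). ITGB8, the other β subunit known for this activation, had 451 against 232 in A549 cells (0.96, 0.73 to 1.19) and 2158 against 1172 in HCC827 cells (0.88, 0.78 to 0.98). ITGB5, a receptor subunit for vitronectin, had 10188 against 15459 in A549 cells (-0.60, -0.64 to -0.56) and 1034 against 1725 in HCC827 cells (-0.74, -0.86 to -0.62). ITGB8 was thus above 0 and ITGB5 below 0 in both lines.

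ITGB3, the β subunit of the vitronectin receptor of osteoclasts and vessels, was low, with 116 against 21 reads in A549 cells (2.86, 2.18 to 3.60) and 20 against 23 in HCC827 cells (0.46, -0.48 to 1.39). The gene ENSG00000259753 shares 33.2% of its exon bases on the same strand and had 0 reads in every library. The lncRNA ENSG00000285155 shares 16.7% of the exon bases of ITGB6 on the same strand and had 97 and 66 reads in A549-myr-AKT1 and A549-vector cells, so reads of these overlapping genes could be split.

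Ranked per length, ITGB1 was the highest β subunit in all 4 libraries, from 105 to 185 RPKM. The second was ITGB5 in A549 cells, with 81.04 RPKM in vector and 54.2 in myr-AKT1 cells, and ITGB6 in HCC827 cells, with 29.7 and 24.96 RPKM. The ratio of ITGB5 to ITGB6 was 114 in A549-vector cells and 14.4 in A549-myr-AKT1 cells. The order of ITGB2, ITGB4, ITGB5 and ITGB8 within HCC827-myr-AKT1 cells, where they lay between 6.12 and 9.50 RPKM, turned with the gene length used and is not given.

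**Figure D4:**
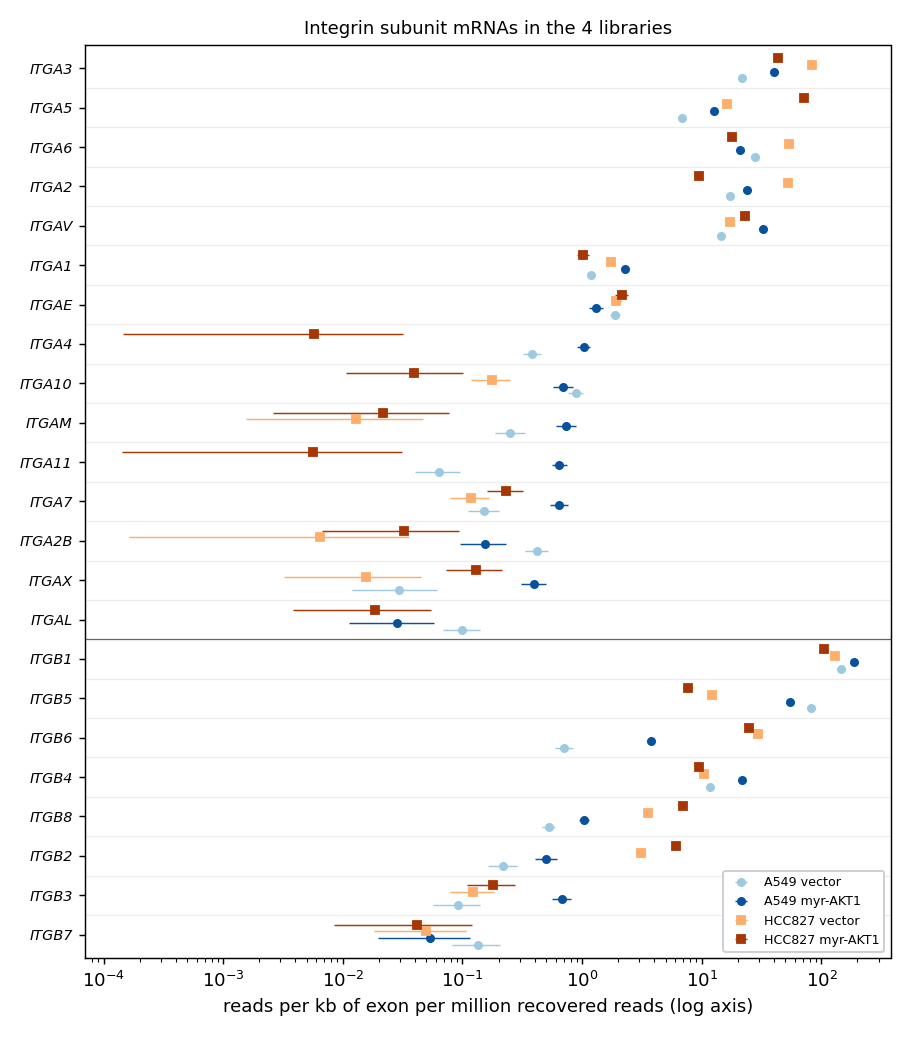
Levels of 23 integrin subunit mRNAs in the 4 libraries are plotted in RPKM on a log axis, with α subunits above and β subunits below the line. Bars are 95% Poisson intervals, a library with 0 reads has no point, and HCC827 vector and myr-AKT1 cells had 16.3 and 71.1 for ITGA5 and 52.2 and 9.55 for ITGA2.

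The integrins of leukocytes and platelets were low, with ITGB2 in HCC827 cells and ITGAE as exceptions. ITGAX, the α subunit known as CD11c, had 71 against 7 reads in A549 cells (3.73, 2.62 to 5.10) and 15 against 3 reads in HCC827 cells (2.98, 1.16 to 5.41). Its partner ITGB2 had 105 against 46.3 normalised counts in A549 cells (1.19, 0.68 to 1.70) and 917 against 487 in HCC827 cells (0.91, 0.76 to 1.07). ITGAM, the α subunit known as CD11b, had 105 against 48 reads in A549 cells (1.52, 1.01 to 2.04) and 2 reads in each HCC827 library. ITGAX and ITGB2 were above 0 in both lines.

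Other members of this group were lower or even. ITGAL, the α subunit of LFA-1, had 7 against 33 reads in A549 cells (-1.85, -3.27 to -0.65), and ITGA2B, the platelet subunit, had 22 against 80 (-1.47, -2.22 to -0.78). Both had 3 reads or fewer in each HCC827 library. ITGB7 had 6 against 20 reads in A549 cells, a log2 ratio of -1.35 whose interval includes 0 (-2.95 to 0.02), and ZNF740 on the other strand overlaps 42.3% of its exon bases. ITGAE, the receptor subunit for E-cadherin, had 251 against 363 normalised counts in A549 cells (-0.53, -0.78 to -0.30) and 291 against 277 in HCC827 cells (0.07, -0.17 to 0.32). Its ligand CDH1 had log2 ratios of 1.39 and 0.31.

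Of 5 leukocyte markers, PTPRC, the pan-leukocyte marker CD45, had 7 reads with myr-AKT1 and 1 with vector in A549, and 0 with myr-AKT1 and 5 with vector in HCC827, and CD3E had 0 in all 4 libraries. The summed reads of PTPRC, CD3E, CD14, CSF1R and LYZ were 762 with myr-AKT1 and 46 with vector in A549, of which CD14 had 685 and 40. In HCC827 cells they were 123 and 99, again as raw reads with the smaller library on the myr-AKT1 side. CD14 had log2 ratios of 4.49 and 2.43. LYZ, the lysozyme gene of myeloid cells, had 69 against 3 reads in A549 and 9 against 2 in HCC827. CSF1R had 1 against 2 in A549 and 46 against 72 in HCC827, the last a log2 ratio of 0.02 in normalised counts. The part of other cell types in the ITGAX, ITGAM and ITGB2 values was not tested.

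The wider adhesion machinery was read from 65 genes in 5 lists, chosen with earlier results of these data known. Of the 64 measured in A549 cells 20 were higher and 3 lower by the threshold, and of the 58 in HCC827 cells 17 were higher and 4 lower. Over all genes measured, 15.1% were higher and 9.87% lower in A549, and 14.1% and 12.4% in HCC827. The 24 activators and linkers, which join integrin tails to actin, had median log2 ratios of 0.01 and -0.05. TNS1 (3.24 and 2.95) and TNS4 (1.88 and 2.75), both tensins that bind β tails, were higher in both lines. The HCC827 values rest on few reads, 44 against 9 for TNS1 (1.90 to 4.17) and 98 against 23 for TNS4 (2.09 to 3.48). TNS1 had 7.15 normalised counts in HCC827-vector cells. FERMT1, the epithelial kindlin that activates integrins, was lower in both lines (-1.17 and -1.09). The talin gene TLN1 had log2 ratios of -0.06 and 0.25. Among the 8 kinases and adaptors, 0 were higher by the threshold in A549 and 2 in HCC827, and 0 were lower in either line. The 2 higher in HCC827 were PTK2B, with log2 ratios of 0.596 in A549 and 1.499 in HCC827, and NEDD9, with -0.406 and 1.651. The FAK gene PTK2 had 0.06 and 0.12.

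Of the 10 laminin network partners, of which 10 and 8 were measured, 3 were higher by the threshold in each line, where 15.1% and 14.1% of all genes were. HSPG2, the heparan sulfate proteoglycan perlecan, had log2 ratios of 1.20 and 2.06, and COL7A1, the anchoring fibril collagen that binds laminin-332, had 1.83 and 1.67. The 19 genes listed as ligands of integrins other than laminins had median log2 ratios of 1.93 over the 19 measured in A549 and 1.24 over the 17 measured in HCC827. By the threshold 13 and 10 were higher, beside the same shares of all genes, and 1 and 2 were lower, where 9.87% and 12.4% of all genes were. The lower ones were CCN1 in A549 (-1.45), and TNC (-1.42) and THBS1 (-2.24) in HCC827. TNC had 2.54 in A549. FN1, SPP1, COL1A1, LTBP1, FGA, FGB and FGG were higher in both lines, with Benjamini-Hochberg adjusted p in limma between 0.00658 for the fibrinogen chain FGG and 0.0416 for LTBP1, which anchors latent TGF-β. In limma, 11 of the 62 listed genes kept were called higher and 0 lower, where 1.29% and 1.73% of all 19314 genes were. At an unadjusted p under 0.05 limma had 2 of them lower, and after adjustment edgeR called 0 and DESeq2 called 1 lower. With size factors over 4 libraries limma called 3 higher. The lists were chosen with earlier results known, so these counts are a description.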

How the data were processed

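RNA of A549 and HCC827 cells with vector or myr-AKT1 was sequenced on stranded Illumina libraries, 1 per condition, after rRNA removal per the labels (the study's methods name poly(A) selection). The submitters' processing notes name Bowtie2, HTSeq and hg38. The annotation release, strand setting and size-factor tool were not given in the sources used here. The deposited values are a signal, gene read counts divided by a size factor, although the study's methods name RPKM. Dividing by what 1 read was worth gave whole reads within 0.001 for 27094 of 27094, 26983 of 26984, 25186 of 25186 and 25879 of 25880 detected genes (myr-AKT1 before vector, A549 before HCC827).

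Genes were matched to GENCODE release 44 (60261 of 60558). Log2 ratios within a line used genes with a mean of at least 10 over the 2 libraries, with 95% Clopper-Pearson intervals of the read ratio, which cover counting error only. RPKM was computed from recovered reads, their totals and the union of exons, with 95% Poisson intervals. With 1 library per condition, no test was made within a line, and the main test over both lines was limma 3.58.1 (R 4.3.3) on log2(value + 1), on genes kept by filterByExpr of edgeR, with cell line as block, which pairs the libraries because each pair is the same line, Benjamini-Hochberg adjusted over all genes tested. Counts were also tested with edgeR 4.0.16 and DESeq2 1.42.0 on the recovered reads, and the code was tested on simulated data. Tables were made in Python 3.11.15. Alternatives covered scaling, pseudocounts, the minimum value, the threshold, the test and the block, and the canonical transcript length for RPKM was added after seeing the data.

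Subunit genes were named with values if they passed the minimum in either line, and genes of the 5 other lists if past the threshold in the same direction in both lines, with FN1 and CDH1 added as ligands. DST, COL17A1, PLEC, CD151, TLN1, PTK2, PTK2B, NEDD9, CCN1, TNC and THBS1 lie outside that rule and were chosen after their values were seen. Marker lists were given whole. The members and lists were chosen with earlier results of these data known. Items that are not reported here were left out of the members, lists, counts and figures.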

Additional observations from a re-analysis of the deposited data

Results flagged for a closer look

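For 7 subunit genes the difference between myr-AKT1 and vector had opposite signs in A549 and HCC827 cells, with both counting intervals excluding 0. The log2 fold changes in A549 and HCC827 cells were 0.90 and -0.86 for ITGA1, 0.46 and -2.53 for ITGA2, and 0.85 and -1.04 for ITGA3. They were 0.33 and -0.38 for ITGB1, 0.85 and -0.21 for ITGB4, and 2.38 and -0.33 for ITGB6. For the laminin chain LAMC1 they were -0.078 and 0.22, and the first became 0.025 with size factors estimated over all 4 libraries, so its opposite sign depends on the scaling. No test was made of how the lines differ, since each condition of a line is 1 library. Opposite signs of this kind were found for 14.7% of all 15704 genes measured in both lines.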

How the results depend on the processing

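Leaving out a library was not possible, since each condition is 1 library. At a log2 threshold of 2, 7 subunit genes were higher and 1 lower in A549 cells, and 2 were higher and 2 lower in HCC827 cells. The call of ITGA3 in HCC827 cells was lost under each of the 3 other scalings, which left 3 genes lower. With a minimum mean of 50, 2 were lower in A549 cells, and with no minimum 8 were higher in HCC827 cells. Size factors over 4 libraries (DESeq2) moved the median of all A549 genes by 0.10 and that of the subunit genes to 0.95, and turned LAMC1 in A549 cells to 0.025, the only sign to turn among 57 log2 fold changes under total reads, TMM, these size factors or a pseudocount. In the test over both lines, limma called 250 genes higher and 335 lower, with 1 subunit gene higher. Without the replicate block for cell line it called 0 higher and 0 lower, subunit genes included, and the adjusted p of LAMB3, whose log2 fold change stayed at 1.85, rounded to 1. DESeq2 called 621 higher and 518 lower, with 5 subunit genes higher (ITGA5, ITGB8, LAMA5, LAMB2 and LAMB3), and edgeR 196 and 228, with LAMB3. A pseudocount of 0.5 gave 112 and 191. A minimum of only 1 read in any of the libraries gave 1101 and 894, with 7 subunit genes higher and 3 lower. Size factors over 4 libraries gave 60 and 101, with 0 subunit genes higher, 10 of them at an unadjusted p under 0.05. The causes were not tested. The adjusted p of LAMB3 ranged from 1.61e-08 to about 1 over these alternatives. RPKM depends on the exon length used.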
